A study of Mus musculus with 4 samples.

Results

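Gatm, Gamt, Oat, Car3, Npl, Bex4, Cela1 and Sepw1 are 8 of the 27998 genes measured in single kidney cells of mice given glyoxylate. They were chosen by name because most of them go together across proximal tubule cells and differ between days in these same data. Their levels and co-variation below are thus a description and support nothing by themselves. Kidneys came from male C57BL/6 mice of 6 to 8 weeks that had received intraperitoneal glyoxylate, from which the body makes oxalate, for 1, 4 or 7 days (D1, D4, D7), or for 0 days (D0). Every group was the same strain, and the labels give no vehicle for D0 and no number of animals per library. Each day is 1 droplet library (10x 3' chemistry), so no difference between days could be tested between animals. All intervals are 95% intervals for counting error only.

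The proximal tubule is the part of the nephron that takes back most filtered glucose, amino acids and phosphate, and its early and late segments carry different transporters. Creatine synthesis begins there: Gatm, a mitochondrial enzyme, moves an amidino group of arginine to glycine, which gives guanidinoacetate and ornithine, and Gamt adds the methyl group that makes creatine, mostly in liver. Oat, ornithine aminotransferase, uses the ornithine. Car3 is a cytosolic carbonic anhydrase known from muscle, fat and liver, Npl is the lyase that breaks down sialic acid, Cela1 is an elastase-type serine protease, Sepw1 is the small redox selenoprotein W, and Bex4 is a small protein of the X-linked BEX family.

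Proximal tubule cells were taken as cells with at least 2 UMIs of Lrp2 plus Slc34a1 (the megalin receptor and a phosphate transporter), at most 50% mitochondrial (mt-) UMIs and 0 UMIs of the leukocyte gene Ptprc. A UMI, or unique molecular identifier, stands for 1 captured RNA molecule. This gave 11751, 7635, 15040 and 12625 cells at D0, D1, D4 and D7, of 16426, 12730, 16427 and 15087 barcodes. Their median depths were 5679, 6976, 5014 and 5685 UMIs. The shallowest deposited cell had 500 UMIs in the D0 and D1 libraries, against 2919 and 2773 UMIs in those of D4 and D7. Whole libraries held 85009491 to 99337001 UMIs. Any 2 libraries shared 50 to 81 barcodes. All 11 proximal tubule markers were present on each day, at a summed level of 10903 to 13929 counts per 1000000 UMIs (CPM). The 8 injured tubule markers, such as Havcr1 and Spp1, summed to 407 CPM at D0, 838 at D1, 1443 at D4 and 2611 at D7, and 9 phagocyte markers to 27.8, 47.9, 64.0 and 99.8 CPM. The part of these differences in the results below was not tested.

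Positions are those of GENCODE M21 on mm10. Gatm (ENSMUSG00000027199) lies on chromosome 2 at 122594467 to 122611303, Oat (ENSMUSG00000030934) on chromosome 7 at 132557478 to 132576398, and Car3 (ENSMUSG00000027559) on chromosome 3 at 14863512 to 14872523. Gatm and Oat are on the minus strand and Car3 on the plus strand. Npl (ENSMUSG00000042684) lies on chromosome 1 at 153503015 to 153550045, Gamt (ENSMUSG00000020150) on chromosome 10 at 80258151 to 80261012, and Cela1 (ENSMUSG00000023031) on chromosome 15 at 100674421 to 100687921, all on the minus strand. Bex4 (ENSMUSG00000047844) lies on chromosome X at 136138996 to 136140443 on the plus strand. Sepw1 (ENSMUSG00000041571, Selenow in GENCODE) lies on chromosome 7, minus strand, from 15917208 to 15922402. All 8 are protein coding. The annotated span of Oat overlaps that of Fgfr2 on the same strand, while no other gene overlaps the remaining 7.

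Promoter windows of 250 bases before to 50 after the start were held by RefSeq (GRCm38.p6) for Gatm, Gamt, Oat, Npl, Bex4, Cela1 and Sepw1. Both strands were searched for the TATA box as TATAAA, the site of the kidney and liver factor HNF1 as GTTAAT, that of HNF4 as CAAAGTCCA, the oxidative stress element of NRF2 as TGACNNNGC, the site of AP-1 as TGAGTCA and the E-box as CACGTG. The DR1 and glucocorticoid receptor motifs were searched by their full consensus. TATAAA was found in Cela1, at 27 to 22 bases before the start, and in 13.6% of all 32851 windows. CACGTG was found in Npl and Bex4 and in 7.15% of windows. The other 6 motifs, held by 7.10, 0.475, 12.4, 5.20, 0.0396 and 0.00913% of windows in the order above, had no match in these 7 windows. Shown for the reader to compare are the exon-free stretches nearest the start of Gatm and Oat, the pair with the highest r at D0 and D1, and of Bex4 and Cela1, which hold a match (in capitals), 5′ to 3′ on the gene's strand. They lie at chr2:122611304-122611453, chr7:132576399-132576548, chrX:136138846-136138995 and chr15:100687922-100688071 in that order.
Gatm: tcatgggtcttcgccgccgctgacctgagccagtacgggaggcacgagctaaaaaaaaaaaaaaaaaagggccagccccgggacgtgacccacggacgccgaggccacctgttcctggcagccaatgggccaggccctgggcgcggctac
Oat: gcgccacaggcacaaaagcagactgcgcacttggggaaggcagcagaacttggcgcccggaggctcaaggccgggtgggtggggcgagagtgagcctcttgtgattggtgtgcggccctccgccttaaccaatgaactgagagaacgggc
Bex4: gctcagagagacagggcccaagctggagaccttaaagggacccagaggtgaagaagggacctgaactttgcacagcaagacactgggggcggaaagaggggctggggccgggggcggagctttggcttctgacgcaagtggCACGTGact
Cela1: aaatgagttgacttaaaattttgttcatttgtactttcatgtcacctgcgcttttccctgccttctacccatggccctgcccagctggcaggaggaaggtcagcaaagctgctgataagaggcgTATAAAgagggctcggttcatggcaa

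In all proximal tubule cells Gatm and Car3 were lower on each later day, while Npl, Oat, Bex4 and Sepw1 were highest at D1, lowest at D4 and between these at D7. Gatm, the first creatine enzyme, was at 1089 CPM at D0, 969 at D1, 633 at D4 and 560 at D7. Its D7 level was 0.514 times that of D0 (0.508 to 0.520). Car3 was at 170, 131, 98.2 and 72.1 CPM, with a D7 to D0 ratio of 0.426 (0.413 to 0.439). For both genes the intervals of the 4 days did not overlap.

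Gamt, the second creatine enzyme, was at 54.6, 59.5, 48.7 and 43.8 CPM at D0, D1, D4 and D7, a D7 to D0 ratio of 0.803 (0.768 to 0.840). It was thus lower at D7 by less than Gatm. Oat, which breaks down ornithine, was at 104, 131, 78.5 and 90.8 CPM, so D7 stood at 0.876 times D0 (0.849 to 0.904). Oat was highest at D1, where Gatm was already below D0. Npl, the sialic acid lyase, was at 39.7, 65.5, 29.7 and 47.1 CPM. It was the 1 gene of the 8 above its D0 level at D7, at a ratio of 1.18 (1.13 to 1.24).

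Sepw1 followed the order of Oat, at 77.4, 95.2, 49.6 and 59.3 CPM at D0, D1, D4 and D7, with a D7 to D0 ratio of 0.766 (0.738 to 0.796). Bex4 was at 29.1, 41.5, 24.0 and 26.0 CPM. Its D7 to D0 ratio of 0.893 (0.842 to 0.947) was 1.01 in cells thinned to a common depth, so no direction is drawn for Bex4 at D7. Cela1 was at 410, 361, 312 and 355 CPM, lower than at D0 on each later day and lowest at D4.

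**Figure D1:**
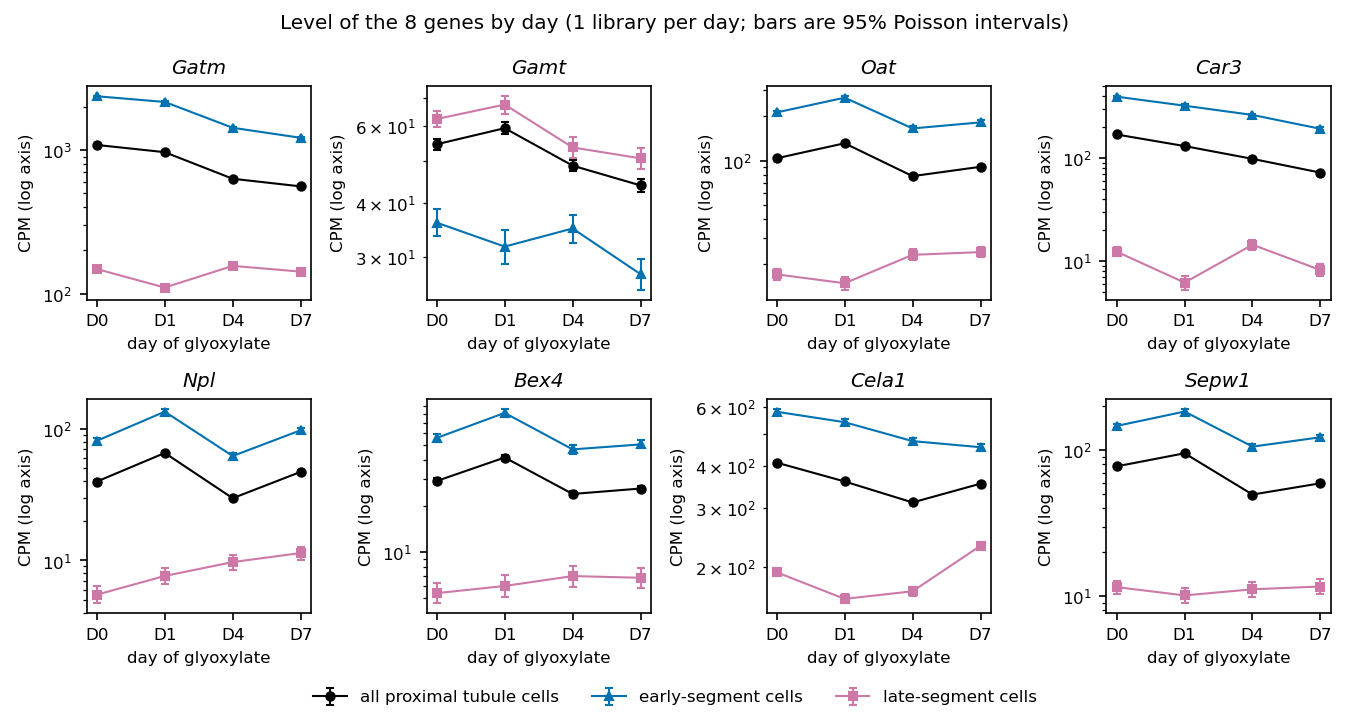
CPM (log axis) of each gene by day in all proximal tubule cells (circles), early-segment cells (triangles) and late-segment cells (squares), 1 library per day, with 95% Poisson intervals. Gatm and Car3 decline day by day in all and early cells, Npl, Oat, Bex4 and Sepw1 peak at D1 there, and Gamt is the one gene whose late-segment level lies above its early-segment level.

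By a 1.5-fold ratio of CPM plus 1, 3 of the 8 genes were lower at D4 than at D0 (Gatm, Car3 and Sepw1) and 0 higher, where 1.01% of 12733 genes with at least 50 UMIs were lower and 4.49% higher. At D7, 2 were lower (Gatm and Car3) and 0 higher, against 1.62% lower and 7.24% higher of 12781 genes. At D1, 0 were lower and 1 higher (Npl, at 1.65 times D0), against 0.717% lower and 1.62% higher of 12421 genes. As these contrasts chose the genes, nothing is read from these counts. The median log2 ratio of the 8 genes was 0.21 at D1, -0.40 at D4 and -0.26 at D7, and that of all genes 0.08, 0.02 and 0.06. Scaling by edgeR TMM factors moves every D1 ratio by -0.11 in log2, and Gamt at D1 is then at 1.01 times D0.

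Early-segment cells were taken as those with at least 2 UMIs of the glucose and lactate transporter genes Slc5a2 plus Slc5a12, and late-segment cells as those with at least 3 UMIs of the amino acid transporter gene Slc7a13. There were 3055, 1757, 3896 and 3438 early cells and 3207, 1967, 3447 and 3282 late cells at D0, D1, D4 and D7, and the 263, 117, 397 and 338 cells that met both gates were left out of both. Of the 8 genes, 7 were higher in early than in late cells on every day. Gatm was at 2380 CPM in early and 148 CPM in late cells at D0, a ratio of 16.0 (15.6 to 16.5). Car3 had the widest gap, at 396 CPM in early and 12.3 CPM in late cells (ratio 32.2; 29.1 to 35.7). Cela1 had the narrowest of the 7, at 582 CPM in early and 193 CPM in late cells (a ratio of 3.01). The D0 ratios of Npl, Sepw1, Oat and Bex4 were 14.7, 12.7, 12.4 and 10.3.

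Gamt ran the other way. It was at 35.9 CPM in early and 62.4 CPM in late cells at D0, a ratio of 0.575 (0.529 to 0.625), and its early to late ratio was 0.469, 0.649 and 0.539 at D1, D4 and D7. The first and the second enzyme of creatine synthesis thus had their higher levels in opposite segments in all 4 libraries.

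The gap between early and late cells was widest at D1 and narrower at D4 and D7 for the 7 genes. For Gatm the early to late ratio was 16.0 at D0, 19.7 at D1, 9.18 at D4 and 8.58 at D7. For Car3 it was 32.2, 52.6, 18.3 and 23.7, and for Npl 14.7, 17.7, 6.39 and 8.56. Oat (12.4, 18.0, 7.15 and 7.53) and Sepw1 (12.7, 18.1, 9.48 and 10.5) kept that order. Early-segment markers that neither gate uses also differed between days in late cells. Slc6a19 in late cells was 6.93, 6.60, 11.8 and 13.6% of its level in early cells at D0, D1, D4 and D7, and Spp2 6.26, 5.38, 12.6 and 13.1%. Late-segment markers in early cells differed as well. Slc5a10 was there at 12.1, 9.06, 22.8 and 21.4 CPM and Atp11a at 55.2, 47.4, 88.3 and 93.0 CPM. Slc22a7 was highest at D0 (2.79, 0.970, 1.95 and 1.52 CPM), and Cyp7b1 was at 0.558, 0.647, 1.61 and 0.902 CPM. Late cells had a median depth of 9401, 11530, 6491 and 7473 UMIs, and early cells 5890, 7592, 4731.5 and 5476. The part of carried RNA and of cell depth in the early to late ratios was not tested.

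Within early cells Gatm was at 2380, 2171, 1434 and 1221 CPM at D0, D1, D4 and D7, a D7 to D0 ratio of 0.513 (0.506 to 0.521), as in all proximal tubule cells. Car3 in early cells was at 396, 323, 263 and 193 CPM (0.487; 0.469 to 0.505). Lower past 1.5-fold in early cells were Gatm and Car3 both at D4 and at D7, 2 of 8 each time, and 0 of 8 at D1. Car3 at D4 lay at the limit (0.664; 0.641 to 0.687) and did not pass it with Scrublet removal (0.703), equal weight per cell (0.705), thinning (0.681), a pseudocount of 10, or without cells with a Havcr1 UMI (0.671). Of all genes in early cells 0.768, 0.686 and 1.67% were lower at D1, D4 and D7, and 1.87, 4.31 and 7.27% higher. Npl was the 1 gene higher in early cells, at D1, with 135 CPM against 81.0 CPM at D0 (1.66; 1.56 to 1.78). The D1 peak of Oat, Bex4 and Sepw1 was also present in early cells, at 266, 81.1 and 184 CPM against 212, 55.7 and 146 CPM at D0.

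Within late cells Gatm was at 148, 110, 156 and 142 CPM at D0, D1, D4 and D7. Car3 was the 1 gene lower past 1.5-fold there, at D1 with 6.14 CPM against 12.3 CPM at D0 (0.50; 0.413 to 0.603), and 0 were at D4 or D7. At D7 Car3 was at 8.13 CPM (0.662; 0.558 to 0.783), which does not pass the limit once 1 is added to each CPM. Of all genes in late cells 0.814, 1.31 and 1.44% were lower and 2.0, 5.28 and 6.35% higher at these days. Npl was higher in late cells at 5.50, 7.63, 9.72 and 11.4 CPM, with ratios of 1.77 (1.45 to 2.16) at D4 and 2.07 (1.72 to 2.51) at D7. Without the cells of highest doublet score these Npl ratios were 2.39 and 2.78, and that of Car3 at D4 was 1.77 in place of 1.17. The early-segment marker Slc6a19 was at 18.4, 12.5, 22.8 and 23.6 CPM in late cells at D0, D1, D4 and D7. On each day Gatm and Npl in late cells lay within their range in cells outside the proximal tubule, given below. So did Car3 on all days but D1, when it was below that range. The part of carried early-segment RNA in the Npl ratios of late cells was not tested.

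Proximal tubule cells that met neither gate, 5226, 3794, 7300 and 5567 of them, held 28.1, 33.0, 43.8 and 38.0% of the UMIs at D0, D1, D4 and D7. In these cells Gatm was at 1229, 1149, 492 and 464 CPM, a D7 to D0 ratio of 0.378 (0.370 to 0.386). Car3 was at 181, 146, 59.8 and 45.9 CPM (0.253; 0.238 to 0.268). Both genes were thus further below D0 in cells of neither gate than in early cells. Sepw1 (109, 136, 43.7 and 58.3 CPM) and Oat (129, 176, 67.0 and 87.0 CPM) kept their D1 peak and D4 trough. These ungated cells were 44.5% of proximal tubule cells at D0, where they held 28.1% of the UMIs. At D4 they were 48.5% of cells and held 43.8%. The shallowest deposited cell had 500 UMIs at D0 and 2919 at D4. Which segments the ungated cells hold on each day, and the part of depth in their levels, was not tested.

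Co-variation was measured in cells thinned to 2000 non-mitochondrial UMIs, a matched depth, as Pearson's r of log counts between genes within a library. It is a description across cells that share a library and segment identity. The 9295, 6157, 14911 and 12413 cells that were deep enough at D0, D1, D4 and D7 left out 2456, 1478, 129 and 212. Gatm and Oat had r of 0.44, 0.45, 0.33 and 0.30 at D0, D1, D4 and D7. Gatm and Cela1 had 0.42, 0.43, 0.35 and 0.27, and Gatm and Car3 0.40, 0.36, 0.32 and 0.30. Pairs with Gatm had the higher r: its 6 pairs without Gamt had a median of 0.39, 0.39, 0.31 and 0.28. The other 15 pairs had a median of 0.16, 0.20, 0.13 and 0.11. Gatm also had the highest mean count of the 8 genes. At D0 that was 2.84 thinned UMIs per cell, against 1.05 for Cela1 and 0.0703 for Bex4. The part of count in the higher r of Gatm was not tested. Gamt stood outside the group, with r from -0.09 to 0.01 in its 7 pairs on all 4 days, so the name co-varying does not hold for it.

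An r of at least 0.1 was met by 21, 21, 18 and 15 of the 28 pairs at D0, D1, D4 and D7. As the genes were chosen because most go together in these data, nothing is read from the pair counts. Of all pairs of genes with a mean of at least 0.1 thinned UMI, 1.98, 2.71, 0.585 and 0.796% met it. Bex4 was below that mean on each day (0.0628 to 0.0931) and Npl at D4 (0.0744), yet both stayed in the 28 pairs. The genes of this background were set over all proximal tubule cells and kept within each segment. In cells thinned to 1000 UMIs in place of 2000, 15, 14, 7 and 7 of the 28 pairs met it. The 21 pairs without Gamt had a median r of 0.20, 0.21, 0.15 and 0.16. Within early cells alone the 28 pairs that met it were 7, 8, 5 and 4, where 1.82, 3.24, 0.405 and 0.55% of all pairs did. Within late cells they were 6, 6, 5 and 5, where 0.664, 1.5, 0.18 and 0.309% of all pairs did. The median r of the 21 pairs without Gamt was 0.07, 0.08, 0.05 and 0.07 within early cells, lower than across all proximal tubule cells on each day. The 6 pairs of Gatm had a median r of 0.16, 0.17, 0.14 and 0.11 in early cells, against 0.05, 0.07, 0.04 and 0.04 for the other 15. Among them Gatm had r of 0.19, 0.16, 0.15 and 0.09 with Oat and 0.15, 0.14, 0.15 and 0.16 with Car3. Npl and Car3 had r near 0 in early cells at D0 and D1 (-0.003 and 0.01).

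**Figure D2:**
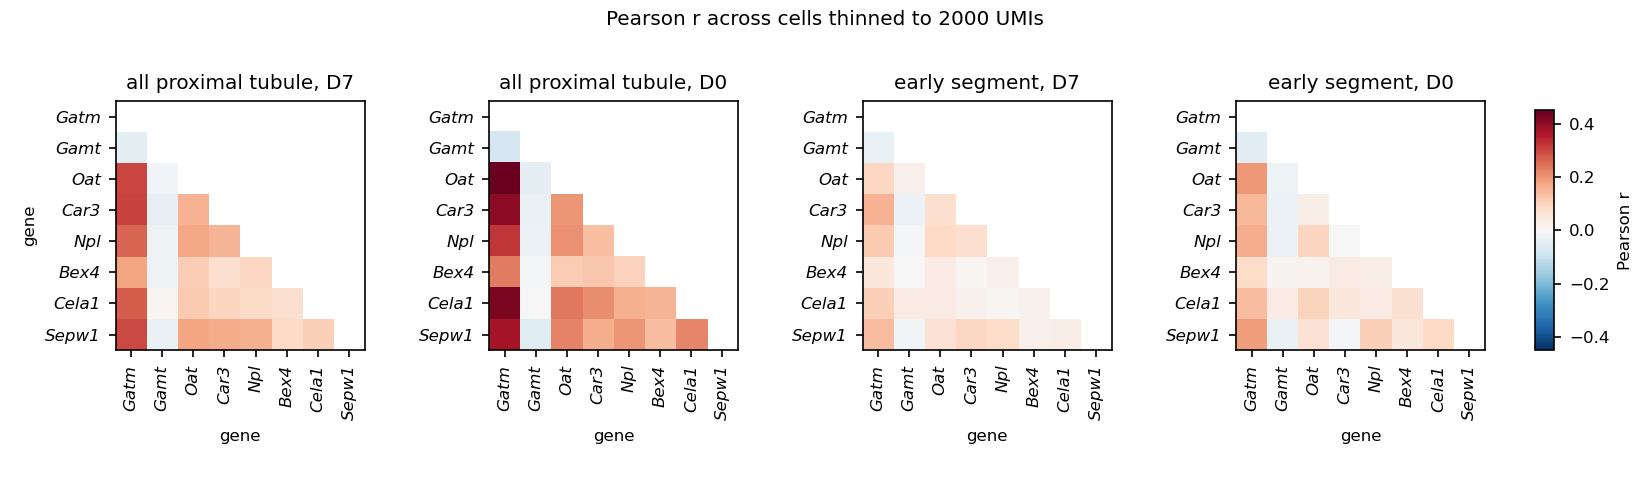
Pearson r between the 8 genes across cells thinned to 2000 non-mitochondrial UMIs, for all proximal tubule cells and early-segment cells at D7 and D0 (color scale, red positive, blue negative). The Gatm column is darkest in all cells, the early-segment panels are paler, and the Gamt row and column are near 0 or negative.

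Sorted by their thinned Gatm count over all proximal tubule cells, cells with more Gatm held more of every other gene but Gamt. At D7, in all proximal tubule cells, Oat was at 52.7 in 1000000 non-mitochondrial UMIs in cells with 0 Gatm UMIs, 133 with 1 to 2, 231 with 3 to 5 and 293 with 6 or more. At D0 it was at 23.5, 88.9, 210 and 344. Car3 was at 18.9, 88.9, 250 and 395 over these steps at D7, and at 13.1, 125, 419 and 595 at D0. Npl, Bex4, Cela1 and Sepw1 climbed over the 4 steps as well on both days. Npl was at 21.6, 66.7, 116 and 186 at D7, and at 5.99, 19.7, 78.4 and 147 at D0. Gamt did not, at 58.2, 53.4, 42.6 and 34.0 at D7, and at 74.9, 75.9, 47.8 and 42.0 at D0. At D7 and D0 the order also held within early cells, where Oat was at 178, 206, 238 and 273 at D7, and at 120, 182, 209 and 324 at D0. Car3 in early cells was at 134, 199, 296 and 383 at D7, and at 151, 297, 483 and 603 at D0. In early cells at D1 the last step did not keep it for 2 genes. Car3 was at 432 with 3 to 5 Gatm UMIs and 416 with 6 or more, and Bex4 at 87.7 and 81.5. As Gatm itself was lower at D7, the steps hold different shares of cells on the 2 days: early cells with 0 Gatm UMIs were 451 of 3386 at D7 and 96 of 2717 at D0, so levels within a step are not compared between days.

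**Figure D3:**
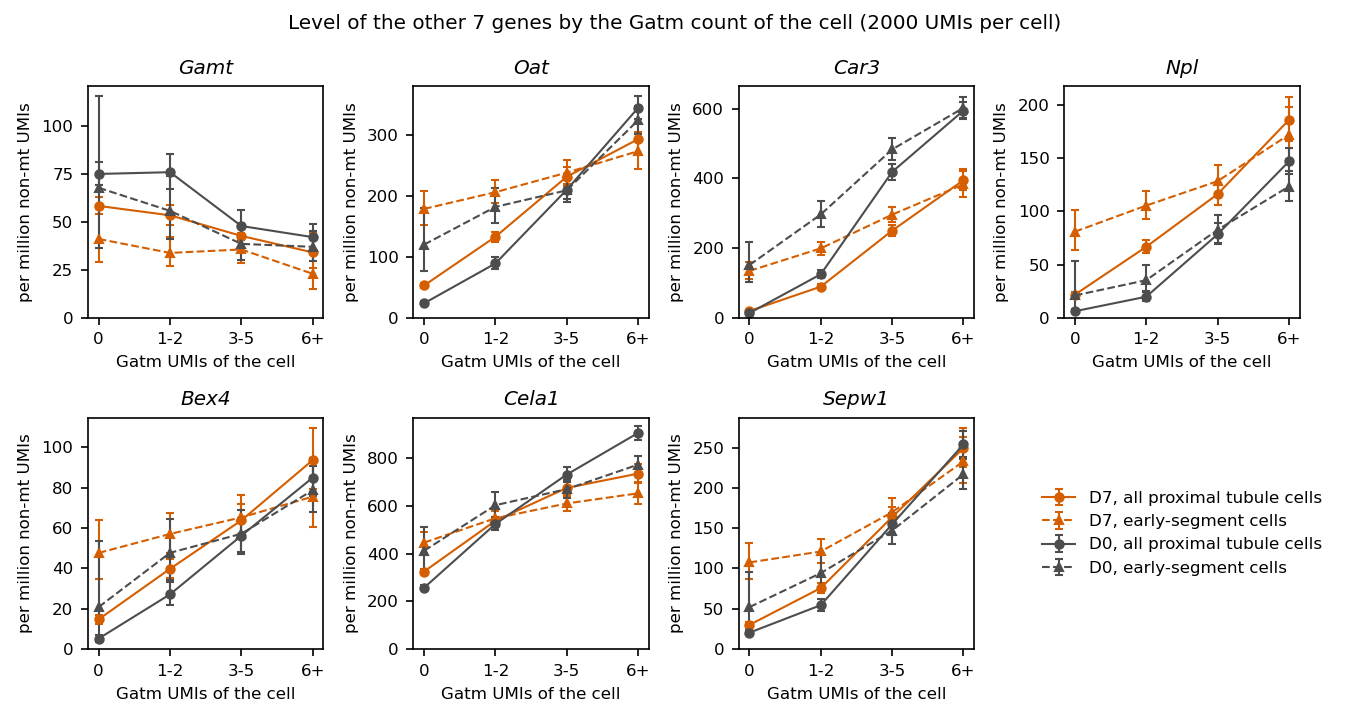
Level of the other 7 genes per 1000000 non-mitochondrial UMIs by the Gatm count of the cell after thinning to 2000 UMIs, at D7 (orange) and D0 (grey), in all proximal tubule cells (solid) and early-segment cells (dashed), with 95% Poisson intervals. All but Gamt climb with the Gatm count.

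Gatm itself was spread over a wide range of cells. After thinning, the median early cell had 5, 4, 3 and 3 Gatm UMIs at D0, D1, D4 and D7, with upper quartiles of 8, 7, 5 and 5. Cells with at least 10 Gatm UMIs were 14.9, 8.62, 2.82 and 2.30% of early cells. The upper end of the Gatm range was thus thinner at D4 and D7, and the 99th percentile of early cells was 16, 14, 11 and 11 UMIs. Car3 was concentrated in fewer cells: its median early cell had 0 UMIs on all days, and the 99th percentile was 10, 9, 8 and 7 UMIs.

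The genes whose pattern across cells was most like the mean of the 8 genes were ranked over 2190 genes by their smallest r in the 4 libraries. Among the 10 first were Ftl1 (ferritin light chain), Tpt1, Gpx3 (an extracellular glutathione peroxidase made by the proximal tubule), Gsta2 (a glutathione transferase), Car2, Spp2, Slc25a4 (the mitochondrial ADP/ATP carrier), Maf and Mif. Ftl1 had r of 0.53, 0.53, 0.41 and 0.39 at D0, D1, D4 and D7, and Spp2 0.33, 0.30, 0.38 and 0.34. Ftl1 and Tpt1 have processed copies in the genome, so their counts are uncertain. All 10 were higher in early than in late cells at D0, from 1.31 times for Tpt1 to 16.0 times for Spp2. Ftl1, Gpx3 and Tpt1 were at 9116, 7352 and 5864 CPM at D0. The part of segment and of count in this ranking was not tested. The 8 most opposed were Kap (a kidney androgen-regulated gene), Napsa, Slc27a2, Nudt19, Cyp4b1, Chpt1, Acy3 and Slc7a13. Kap had r of -0.69, -0.70, -0.62 and -0.58. Slc7a13, which set the late gate, had -0.45, -0.44, -0.32 and -0.34, and these genes were lower in early than in late cells at D0. For Gatm alone the 5 most alike were Gpx3, Spp2, Maf, Slc5a2 and Ftl1, with r of 0.57, 0.48, 0.52 and 0.43 for Gpx3.

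The 8 lists of related genes, which include the 8 genes themselves, were read by the same 1.5-fold rule, which 1.62% of all genes passed as lower and 7.24% as higher at D7. Of 6 measured creatine genes, Gatm alone was past 1.5-fold at D7 (1 lower, 0 higher), with the creatine transporter gene Slc6a8 at 70.8 CPM against 69.1 CPM at D0. At D4 2 of the 6 were lower, Gatm and the creatine kinase gene Ckb at 11.1 CPM against 17.7 CPM at D0, where 1.01% of all genes were lower. Among 17 genes of arginine, ornithine, proline and polyamine metabolism, 1 was higher, the mitochondrial arginase gene Arg2 at 4.36 CPM against 0.751 CPM (5.80; 4.40 to 7.76). In that list 1 was lower, the argininosuccinate synthase gene Ass1 at 948 CPM against 1556 CPM (0.609; 0.604 to 0.615). Of 12 sialic acid genes 1 was lower, Neu2, a sialidase gene, at 3.29 CPM against 5.72 CPM. Npl, with its D1 peak, was the 1 gene of that list higher at D1, against 1.62% of all genes.

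Of 11 measured carbonic anhydrase genes at D7, 2 were lower and 1 higher. Beside Car3 these were Car14, a membrane-bound form, at 36.3 CPM against 65.0 CPM (0.558; 0.533 to 0.584), and Car13 at 2.45 CPM against 1.01 CPM. Of 19 selenoprotein genes 0 were past 1.5-fold at D7, Sepw1 included. Of 7 BEX and TCEAL genes 0 were, and Bex1 was the 1 gene of that list higher at D1, at 8.70 CPM against 5.31 CPM at D0. Among 16 methyl donor genes 1 was higher, Bhmt at 5.59 CPM against 2.73 CPM (2.05; 1.74 to 2.42). Of 5 measured genes of elastases and their inhibitors 3 were higher and 0 lower: the protease inhibitor genes Serpina1a and Serpina1d, which have near-identical copies and uncertain counts, and Slpi, while Cela1 was at 0.866 times D0. The median log2 ratio at D7 was -0.21 for the creatine list, -0.12 for ornithine, 0.06 for sialic acid, -0.22 for carbonic anhydrases, 0.09 for BEX, -0.15 for methyl donors and 0.61 for elastases, and 0.06 for all genes.

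The labels name renal cells, so the 8 genes were also read in cells outside the proximal tubule, taken by markers with at most 1 UMI of Lrp2 plus Slc34a1 and summed over all days. In thick ascending limb cells (413 cells) Oat was at 205 CPM, in distal convoluted tubule cells (143) at 210 CPM and in intercalated cells (164) at 164 CPM, above its 78.5 to 131 CPM in all proximal tubule cells and near its 165 to 266 CPM in early cells. Sepw1 was higher outside the proximal tubule too, at 362 CPM in T or NK cells (730), 290 CPM in B cells (350), 235 CPM in mononuclear phagocytes (355) and 210 CPM in thick ascending limb cells. Its level was 49.6 to 95.2 CPM in all proximal tubule cells and 106 to 184 CPM in early cells. Gatm was at 83.3 to 221 CPM in these classes, Car3 at 6.8 to 18.5 CPM and Npl at 3.7 to 28.5 CPM. Proximal tubule markers in the same classes were 5.36 to 8.95% of their level in proximal tubule cells, so their RNA is present there, and its part in these levels was not tested. Late-segment cells held Gatm at 110 to 156 CPM, Car3 at 6.14 to 14.3 CPM and Npl at 5.50 to 11.4 CPM. These values lay within the ranges of the classes outside the proximal tubule, but for Car3 at D1.

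Cells with a UMI of Havcr1, the injury receptor gene Kim-1, held less of most of the 8 genes than cells without within the same library and at the same thinned depth. At D7, in 574 such cells against 11839 without, Gatm was at 280 and 785 per 1000000 non-mitochondrial UMIs (ratio 0.357; 0.319 to 0.399), and Car3 at 24.4 and 107 (0.229; 0.152 to 0.331). Cela1 was at 260 and 483 (0.538; 0.478 to 0.603) and Gamt at 28.7 and 53.8 (0.535; 0.366 to 0.755). Npl was at 47.9 and 62.2, with an interval that holds 1 (0.770; 0.577 to 1.01). At D7 5 of 8 were lower past 1.5-fold and 0 higher, against 8.12% lower and 12.1% higher of all genes. At D4, with 454 cells, 6 were lower and 0 higher, against 10.5% lower and 11.7% higher. At D1, with 98 cells, 7 were lower and 0 higher, against 22.4% lower and 19.9% higher, and Car3 rested on 2 UMIs and Bex4 on 3 there. Of the 8 intervals, 5 lay below 1 at D1 and 7 each at D4 and D7. Those that held 1 were Npl (0.259 to 1.08), Sepw1 (0.317 to 1.02) and Gamt (0.484 to 1.65) at D1, and Npl at D4 (0.618 to 1.31) and D7. The D7 cells with Havcr1 also held less of the early-segment gene Slc5a12 (0.355; 0.268 to 0.461) and of the late-segment gene Slc7a13 (0.734; 0.656 to 0.818). Slc34a1 (0.645; 0.619 to 0.672) and Lrp2 (0.794; 0.736 to 0.855) were lower there too. Cells with Havcr1 were deeper before thinning than those without, with medians of 7747 and 5676 UMIs. The part of segment in the lower levels of the 8 genes was not tested. Without the cells with a Havcr1 UMI the D7 to D0 calls of Gatm and Car3 in all proximal tubule cells held.

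**Figure D4:**
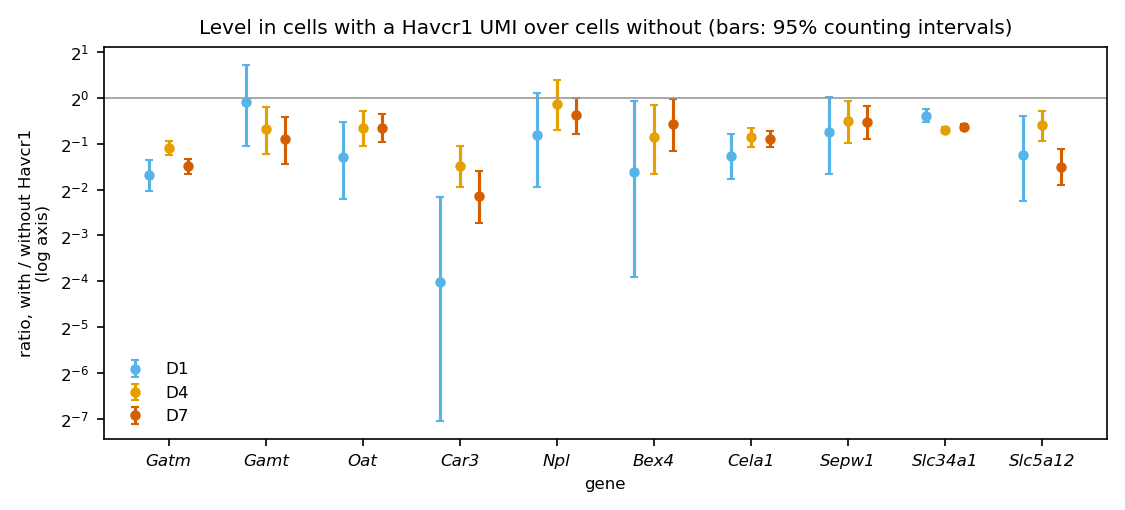
Ratio (log axis) of the level in cells with a Havcr1 UMI to that in cells without, by gene at D1, D4 and D7, from cells thinned to 2000 UMIs, with 95% counting intervals; the line marks 1. The ratios of all 8 genes lie below 1 on each day, as do those of Slc34a1 and Slc5a12. The intervals of Gamt, Npl and Sepw1 at D1 and of Npl at D4 and D7 hold 1.

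The genes were also read by the mitochondrial share of the cell. Levels were taken per 1000000 non-mitochondrial UMIs, in cells with 30 to 50% mt- UMIs against those under 10%. At D0 1 of 8 was lower past 1.5-fold, Cela1 at 417 and 682 (0.611; 0.587 to 0.636), against 10.2% of all genes, and Gatm was at 1714 and 1723 (0.995; 0.974 to 1.02). At D1 2 were lower, Gamt (0.516; 0.420 to 0.628) and Cela1 (0.620; 0.577 to 0.666), against 13.4%. At D4 5 were lower (Gatm, Car3, Bex4, Cela1 and Sepw1), against 8.3%, with Gatm at 621 and 943 (0.659; 0.630 to 0.688). At D7 4 were lower (Npl, Bex4, Cela1 and Sepw1), against 8.67%. None was higher on any day, against 27.3, 26.1, 13.2 and 15.4% of all genes. Gatm at D7 was at 587 and 872 (0.673; 0.647 to 0.701), just inside the 1.5-fold limit. These counts depend on the setting, and their order between days is not kept: thinned cells gave 3 lower at D0 and 2 at D4, and a high step from 20% gave 5 at D0 and 3 at D4.

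Over finer steps the relation was not a straight line at D0 and D1. Gatm at D7 was at 1058 in cells of 0 to 5% mt- UMIs, 770 at 5 to 10%, 691 at 10 to 20%, 618 at 20 to 30% and 587 at 30 to 50%, so it was lower at each step. At D0 it was at 2148, 1333, 1042, 1014 and 1714, higher again in the last step. The share of early cells differed between these steps as well, at 9.28, 23.7, 30.3, 27.4 and 26.5% at D7 and 14.0, 26.8, 29.3, 21.9 and 36.8% at D0. The early gate needs 2 UMIs at any depth, and the part of cell depth in these shares was not tested. Within early cells 0, 1, 0 and 0 of 8 were lower past 1.5-fold at D0, D1, D4 and D7, against 9.04, 17.3, 8.61 and 9.49% of all genes. Within late cells 5, 3, 3 and 3 of 8 were, against 13.5, 20.3, 15.1 and 11.7%. Some of these late calls had intervals that hold 1: Npl at D0 (0.319 to 1.13), Car3 at D4 (0.355 to 1.04) and Bex4 at D7 (0.225 to 1.02). Car3 at D1 was at 1.02 in late cells of high and 9.38 in those of low mt- share (0.108; 0.00271 to 0.617). That call rests on 185 cells of high mt- share in which Car3 was near the floor of counting. Gatm in early cells was at 1389 in cells of high and 1616 in cells of low mt- share at D7 (0.860; 0.812 to 0.910), and at 3344 and 3361 at D0 (0.995; 0.970 to 1.02).

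**Figure D5:**
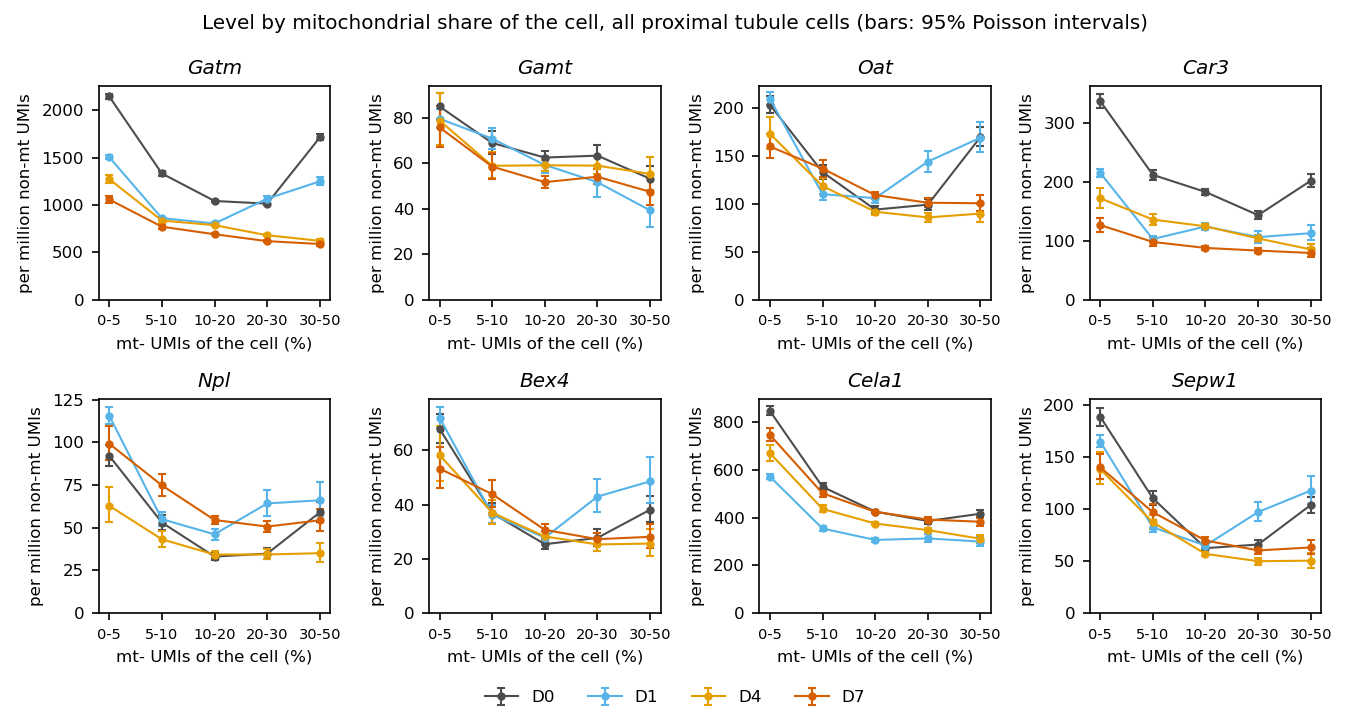
Level of each gene per 1000000 non-mitochondrial UMIs by the mitochondrial share of the cell (5 steps, low to high) in all proximal tubule cells, 1 line per day, with 95% Poisson intervals. At D0 and D1, Gatm and Oat are lowest in the middle steps and higher again at 30 to 50%, while at D4 and D7 Gatm is lower at each step.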

How the data were processed

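Single-cell 3' RNA libraries of mouse kidney, 1 per day, were deposited by the authors as UMI count matrices, made with Cell Ranger 3.1.0 on mm10 per the submitters' processing notes. Software 3.0.1 stands in the header of each matrix. How cells were called and which annotation release was used is not given in the sources used here. Counts were used as deposited.

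UMIs were summed over gated cells in each library and scaled to 1000000. A gene was called where the ratio of CPM plus 1 passed 1.5-fold, with at least 50 UMIs in the pair. Ratios carry exact 95% Poisson intervals, which cover counting error only, and no test between days exists with 1 library per day. Doublets were not removed in the reported values. Co-variation used seeded thinning to 2000 non-mitochondrial UMIs. Cells of both segment gates were left out of both. The gene-name rule took all 8 genes, the 10 genes most like and the 8 most opposed to their mean z-score, up to 5 most like Gatm, and up to 4 per list with the largest D7 change, while genes called at D1 are named beside their counts. Of the genes this rule takes, 1 is not reported here. The genes and lists were chosen with earlier results of these data known. Scripts were tested on simulated data. Tools were Python 3.11.15, numpy 2.4.6, scipy 1.17.1, scanpy 1.11.5 (Scrublet), R 4.3.3 and edgeR 4.0.16 (TMM scaling only). Alternatives changed scaling, mitochondrial limit, depth, gate, doublets, weighting, pseudocount, count filter, thinning and correlation. A D0 segment mix and removal of cells with a Havcr1 UMI were added after the data were seen. Promoter windows came from RefSeq.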

Additional observations from a re-analysis of the deposited data

Results flagged for a closer look

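For 7 of the 8 genes, all but Sepw1, the early-segment and late-segment cells stood on opposite sides of D0 on at least 1 day with both counting intervals clear of 1, and the difference between segments was not tested, as each day is 1 library. Relative to D0, Oat stood at 1.26 in early and 0.871 in late cells at D1, at 0.779 and 1.36 at D4, and at 0.857 and 1.41 at D7. At D4, Npl, the sialic acid lyase gene, stood at 0.766 in early and 1.77 in late cells, Gatm at 0.603 and 1.05, and Car3 at 0.664 and 1.17. The late-cell levels of Npl, Gatm and Car3 at D4 lay within their ranges in cells outside the proximal tubule. Bex4 stood at 0.842 in early and 1.29 in late cells at D4, and at 0.907 and 1.26 at D7. Gamt stood at 0.880 in early and 1.08 in late cells at D1, and Cela1 at 0.784 and 1.20 at D7. The late side of 3 of these crossed 1 under an alternative: equal weight per cell gave 0.997 for Gamt at D1 and 0.984 for Gatm at D4, and Scrublet removal gave 1.003 for Oat at D1.

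The early-segment marker Slc7a7, which no gate uses, was in late cells at 10.0, 10.3, 16.3 and 16.3% of its level in early cells at D0, D1, D4 and D7. Its part in the D4 and D7 values was not tested.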

How the results depend on the processing

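No paired analysis was possible because each day has 1 library and no result comes from a test. Of 226 alternative values of the counts, 190 stayed within 1.5 times the reported count, 36 moved and 0 reversed, and of 816 alternative ratios of single genes 617 moved by less than counting error, 199 moved and 0 called ratios reversed (late-segment ratios near 1, which no rule called, could cross it). In late cells at D7, 1 gene was lower in place of 0 with TMM factors, at most 25% mitochondrial UMIs, equal weight per cell or thinning. In early cells at D4, 1 was lower in place of 2 with Scrublet removal, equal weight, thinning, a pseudocount of 10 or without cells with a Havcr1 UMI. In late cells at D1, 0 were with a pseudocount of 10. Pairs with r of at least 0.1 at D0, D1, D4 and D7 were 7, 8, 5 and 4 in early cells and 6, 6, 5 and 5 in late cells. Over all proximal tubule cells thinned to 1000 UMIs they were 7 at D4, in place of 18, and 7 at D7, in place of 15. Genes lower in cells of high mitochondrial share at D0 were 3 with thinning, 5 with a bin from 20%, 0 in early cells, 5 in late cells, 7 per 1000000 of all UMIs and 2 with Scrublet removal. At D1 they were 1 in early cells, 8 over all UMIs and 4 with Scrublet removal. At D4 they were 2 with thinning, 3 from 20%, 0 in early cells, 3 in late cells and 8 over all UMIs. At D7 they were 0 in early cells and 8 over all UMIs. Dividing by all UMIs puts the mitochondrial share into the denominator, and for the others the cause was not tested. With 1 library per day, animal, batch and day cannot be told apart.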
